A study of Homo sapiens with 4 samples.

Results

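A set of 35 genes for the actin cytoskeleton and for serum response factor (SRF) was read in messenger RNA libraries of the human lung cancer lines A549 and H1993. The genes were taken by name, and all 35 were present among the 43622 genes of each table. The set holds SRF and its coactivator myocardin, the actins, the actin-bundling transgelins, the calponins and caldesmon, myosin II chains, tropomyosins, filamins and alpha-actinins, adhesion and LIM domain proteins, and the genes of the filament-severing DSTN and the filament-nucleating LMOD1. There were 4 libraries: A549 spheroids, A549 adherent cells, H1993 spheroids and a library labelled H1993 adherent. A549 and H1993 were both labelled lung epithelial cells, and no drug, transgene or knockdown was named for any of them. Adherent cells grow attached to a dish, and spheroids are clusters grown without firm attachment. The study's title concerns triacylglycerol metabolism, the coactivator YAP with its TEAD partners, and resistance to reactive oxygen species in cancer stem cells. With a single library in each group, every difference below is between 2 libraries and has no replicate check.

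Actin exists as free monomers and as filaments, and filaments pulled by non-muscle myosin II form stress fibres anchored at adhesions to the substrate. Free monomers hold the coactivators MRTFA and MRTFB in the cytoplasm, and when monomers are used up by filament growth these coactivators enter the nucleus and act with SRF, which binds a short sequence called the CArG box. Many genes switched on in this way encode actin, its binding proteins and adhesion proteins, so the circuit is known as one that couples cell shape and attachment to transcription, and it shares several inputs with YAP and TEAD. Myocardin, encoded by MYOCD, is the member of the same coactivator family best known from smooth and cardiac muscle.

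The CArG box is the sequence by which SRF recognises its targets, so the boxes next to the measured genes are shown first. RefSeq promoter windows (GRCh38.p14, 250 bases before to 50 bases after each annotated start) were found for 31 of the 35 genes. No window was used here for MYOCD, ACTB, TAGLN and MYL9. A CArG box, a 10-base palindromic motif whose search on 1 strand covers both, stood in a window of 9 of the 31 genes (29.0%), against 1.60% of the 27305 genes with a window. Counted by window, it was in 11 of 55 windows of these genes (20.0%) and in 1.29% of all 35116 windows. The TEAD-type hexamer GGAATG, searched on both strands, was in a window of 12 of the 31 genes (38.7%), against 16.7% of all genes. The genes were listed with their link to SRF known, so these shares are a description. The 12 distinct boxes are printed 5′ to 3′ on the strand of the gene, with 10 bases on either side in lower case and the box in capitals.
ACTG2 (chr2:73892888-73892917, plus strand): gaaaaaaccaCCTTATATGGtaatattgct
ACTG2 (chr2:73892925-73892954, plus strand): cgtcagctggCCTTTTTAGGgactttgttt
SRF (chr6:43171229-43171258, plus strand): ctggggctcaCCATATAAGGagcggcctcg
SRF (chr6:43171249-43171278, plus strand): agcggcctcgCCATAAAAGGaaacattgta
FHL2 (chr2:105438595-105438624, minus strand): aatctggagaCCTTAAAAGGcacgtgggag
FHL2 (chr2:105399091-105399120, minus strand): gcgtgcatctCCTTATATGGtcaaatgaca
ACTG1 (chr17:81512874-81512903, minus strand): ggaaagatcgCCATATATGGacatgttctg
ACTN1 (chr14:68977718-68977747, minus strand): acgctcatgtCCAAAAATGGtaacattcat
TGFB1I1 (chr16:31473144-31473173, plus strand): tggaggggagCCAAATTTGGcttgggtgaa
CNN2 (chr19:1026509-1026538, plus strand): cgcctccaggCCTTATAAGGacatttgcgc
TPM4 (chr19:16067355-16067384, plus strand): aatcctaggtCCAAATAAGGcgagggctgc
FLNA (chrX:154374709-154374738, minus strand): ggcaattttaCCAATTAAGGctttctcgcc

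SRF is itself among these genes, and its 2 boxes lie close together just before the start, as the 180 bases upstream of it show.
SRF upstream (chr6:43171089-43171268, plus strand, GRCh38.p14): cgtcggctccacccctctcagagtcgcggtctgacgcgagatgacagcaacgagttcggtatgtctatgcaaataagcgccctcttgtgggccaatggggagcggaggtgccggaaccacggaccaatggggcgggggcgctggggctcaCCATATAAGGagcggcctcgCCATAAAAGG

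FHL2 encodes a LIM protein that binds SRF, and it was the gene with a CArG box that was called higher in H1993 spheroids against the library labelled H1993 adherent. Its upstream stretch is given beside that of SRF, again with the box in capitals.
FHL2 upstream (chr2:105438514-105438693, minus strand, GRCh38.p14): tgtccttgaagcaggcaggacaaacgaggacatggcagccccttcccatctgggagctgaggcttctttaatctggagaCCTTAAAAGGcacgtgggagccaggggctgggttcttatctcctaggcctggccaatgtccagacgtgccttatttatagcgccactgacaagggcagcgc

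The libraries held 17681746 exonic reads in A549 spheroids, 15657295 in A549 adherent cells, 15331121 in H1993 spheroids and 16606939 in the library labelled H1993 adherent. A count of 3 reads, the upper limit that 0 reads allows, corresponded to 0.170 to 0.196 CPM, reads scaled to the library total. The values of the library labelled H1993 adherent went both ways on its label. Across 14759 autosomal genes its log2 values correlated with those of A549 adherent cells at r = 0.958 and with those of H1993 spheroids at r = 0.855, where genes are not independent replicates. Single genes went with the label. The library held 75 reads of CDKN2A and 89 of CDKN2B, against 308 and 371 in H1993 spheroids and 0 of either in both A549 libraries. HNF4A had 1 read there and 5 in H1993 spheroids, against 493 in A549 spheroids and 475 in A549 adherent cells. Differences that rest on this library are given as "the library labelled H1993 adherent", and the H1993 spheroids are also set against A549 adherent cells in its place. All 6 epithelial markers had at least 10 reads in every library, while SCGB1A1, a marker of airway secretory cells, was at 0 in all 4 and at most 2 of 6 lung epithelial markers reached 10 reads.

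Most of the 35 genes were lower in spheroids in A549. Of these 35, 32 passed the filter on low counts, and a kept gene was called when its fold was at least 2 and the 95% Clopper-Pearson interval of its 2 counts excluded no change. These intervals cover counting error only. In A549 spheroids against A549 adherent cells, 8 of 32 genes were called lower and 0 higher, where 10.3% of all 15273 kept genes were called lower and 12.4% higher. The log2 fold was below 0 for 30 of 32 genes, against 50.2% of all kept genes. The median log2 fold was -0.65 over the 32 genes and 0.00 over all kept genes. The 8 genes were MYOCD, ACTB, TAGLN, MYL9, MYH9, TPM1, TPM4 and FLNC. In bulk libraries such as these, fewer cells of a type and less RNA per cell cannot be told apart.

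H1993 spheroids differed from the library labelled H1993 adherent in both directions. Here 12 of 32 genes were called lower and 4 higher, where 18.0% of all kept genes were called lower and 17.0% higher. The lower genes were MYOCD, ACTA2, TAGLN, CALD1, MYL6, TPM1, TPM2, TPM4, ACTN1, TLN1, TGFB1I1 and DSTN. The higher genes were TAGLN2, FHL2, MYL9 and FLNC, and the last 2 rest on 2 and 3 reads in their comparison library. The median log2 fold was -0.62, against 0.00 over all kept genes, and 20 of 32 genes were below 0, against 50.0% of all kept genes. With A549 adherent cells in place of that library, 16 genes were called lower and 3 higher, where 18.3% of all kept genes were lower and 17.9% higher, and the median of the set was -0.93. This comparison shares its adherent library with the A549 pair. MYOCD, TAGLN, TPM1 and TPM4 were called lower in both pairs, 20 genes were below 0 in both, and PDLIM5 and PDLIM7 were above 0 in both. The shares of all kept genes that did so in both pairs are not given, so these counts are a description only.

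**Figure D1:**
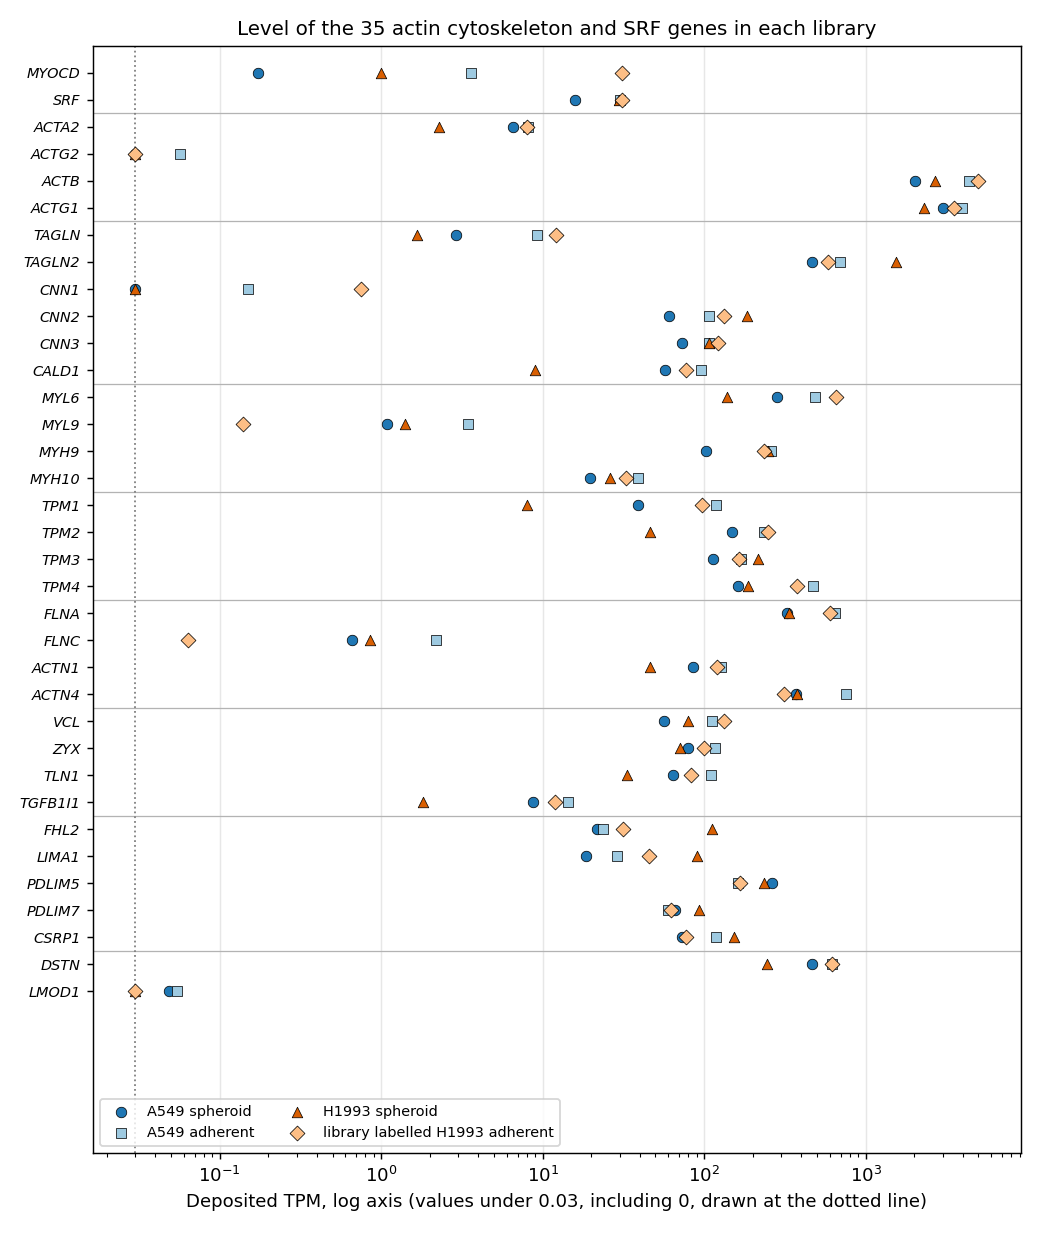
Levels of the genes in each of the 4 libraries, in TPM (transcript abundance scaled by exon length) on a log axis, with 1 point per library, the genes grouped by role and values under 0.03, including 0, at the dotted line. ACTB and ACTG1 lie between 2013 and 4992 TPM in every library, while MYOCD runs from 0.174 to 30.8 TPM.

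MYOCD, encoding myocardin (chr17:12665890-12768949, plus strand, in the hg38 coordinates of the files), showed the lowest fold of the set in both pairs. It had 8 reads (0.174 TPM) in A549 spheroids, against 147 reads (3.60 TPM) in A549 adherent cells. In H1993 spheroids it had 38 reads (1.0 TPM), against 1394 reads (30.8 TPM) in the library labelled H1993 adherent. Both spheroid libraries were therefore below both adherent libraries, and the library labelled H1993 adherent stood far above the other three. The log2 fold was -3.95 (95% interval -5.50 to -3.25) in A549 and -4.95 (-5.52 to -4.55) in H1993, and -1.84 for H1993 spheroids over A549 adherent cells. SRF, the DNA-binding partner, was at 15.9 TPM in A549 spheroids and 30.2 TPM in A549 adherent cells, and at 29.5 TPM in H1993 spheroids and 31.0 TPM in the library labelled H1993 adherent. Only A549 spheroids were low in SRF, with a log2 fold of -0.81 (-1.01 to -0.62), short of the 2-fold limit, and the H1993 fold was -0.14 (-0.31 to 0.02).

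The cytoplasmic actins were the most abundant genes of the set. ACTB (chr7:5527151-5563784, minus strand), which encodes beta-actin, was at 2013 TPM in A549 spheroids, against 4386 TPM in A549 adherent cells. It was at 2705 TPM in H1993 spheroids, against 4992 TPM in the library labelled H1993 adherent. ACTB was lower in both spheroid libraries than in both adherent ones, with log2 folds of -1.01 (-1.03 to -0.99) in A549 and -0.96 (-0.97 to -0.94) in H1993, on either side of the 2-fold limit. ACTG1, encoding gamma-actin, was at 3012 TPM in A549 spheroids and 3981 TPM in A549 adherent cells. It was at 2313 TPM in H1993 spheroids and 3532 TPM in the library labelled H1993 adherent. Its folds were smaller, at -0.29 (-0.31 to -0.27) and -0.68 (-0.70 to -0.66). The ratio of ACTB to ACTG1 in TPM was 0.668 in A549 spheroids, against 1.10 in A549 adherent cells, and 1.17 in H1993 spheroids, against 1.41 in the library labelled H1993 adherent. Together, the 2 actins came to 5025 TPM in A549 spheroids and 8368 TPM in A549 adherent cells, and to 5019 TPM in H1993 spheroids and 8524 TPM in the library labelled H1993 adherent.

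The smooth muscle actins were minor. ACTA2, the smooth muscle alpha-actin also found in stress fibres, had 101 reads in A549 spheroids and 111 in A549 adherent cells. It had 29 reads in H1993 spheroids, against 121 in the library labelled H1993 adherent, so H1993 spheroids alone were low. The H1993 log2 fold was -1.81 (-2.52 to -1.28), and the A549 fold of -0.20 had an interval of -0.60 to 0.20. ACTA2 lies opposite FAS and STAMBPL1, both with reads in every library, and whether counting used strand is not stated, so its reads are uncertain. ACTG2, the enteric smooth muscle actin, had at most 1 read in any library, and LMOD1, the smooth muscle leiomodin, likewise had at most 1.

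The transgelin family split between its members. TAGLN (chr11:117199321-117204782, plus strand), the transgelin of smooth muscle and a standard SRF target, had 59 reads (2.90 TPM) in A549 spheroids and 166 reads (9.21 TPM) in A549 adherent cells. It had 28 reads (1.68 TPM) in H1993 spheroids and 243 reads (12.2 TPM) in the library labelled H1993 adherent. Both spheroid libraries were the lower ones, with log2 folds of -1.52 (-2.01 to -1.12) and -2.85 (-3.55 to -2.37). TAGLN overlaps PCSK7 on the other strand, with the same limit as ACTA2. TAGLN2, its widely expressed paralog, was at 466 TPM in A549 spheroids and 695 TPM in A549 adherent cells. In H1993 it was at 1549 TPM in spheroids and 589 TPM in the library labelled H1993 adherent. H1993 spheroids were thus the highest of the 4 libraries in TAGLN2 and the lowest in TAGLN, with a TAGLN2 log2 fold of 1.32 (1.28 to 1.36) in H1993 and -0.47 (-0.52 to -0.42) in A549.

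Among the calponins, CNN1, the smooth muscle form, was at 0 reads in both spheroid libraries, against 2 reads in A549 adherent cells and 11 in the library labelled H1993 adherent. CNN2, a non-muscle calponin, was at 60.5 TPM in A549 spheroids and 108 TPM in A549 adherent cells, and at 184 TPM in H1993 spheroids and 134 TPM in the library labelled H1993 adherent. CNN3, the acidic calponin, stayed between 73.0 and 121 TPM. Neither was called in a culture pair. CALD1 (chr7:134744252-134970728, plus strand), caldesmon, which binds actin, tropomyosin and myosin, was at 57.0 TPM in A549 spheroids and 95.6 TPM in A549 adherent cells. It was at 8.95 TPM in H1993 spheroids, against 77.4 TPM in the library labelled H1993 adherent. H1993 spheroids stood apart from the other 3 libraries, with a log2 fold of -3.18 (-3.34 to -3.03), against -0.64 (-0.70 to -0.57) in A549.

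Myosin II is the motor of stress fibres. Its main heavy chain gene MYH9 was at 102 TPM in A549 spheroids and 258 TPM in A549 adherent cells, and at 249.9 TPM in H1993 spheroids and 234 TPM in the library labelled H1993 adherent. Only A549 spheroids were low, with a log2 fold of -1.23 (-1.28 to -1.18), and the H1993 fold was 0.02 (-0.02 to 0.06). MYH10, the second non-muscle heavy chain, was at 19.8 TPM in A549 spheroids and 39.1 TPM in A549 adherent cells, and at 26.3 TPM in H1993 spheroids and 32.8 TPM in the library labelled H1993 adherent. Of the light chains, MYL6, the essential chain, was at 284 TPM in A549 spheroids and 488 TPM in A549 adherent cells. In H1993 it was at 139 TPM in spheroids and 659 TPM in the library labelled H1993 adherent, so H1993 spheroids were the lowest, with a log2 fold of -2.32 (-2.38 to -2.26). MYL6 overlaps SMARCC2 on the other strand and MYL6B on its own. MYH10 lies opposite NDEL1, which had 1168 reads in A549 spheroids, against 924 of MYH10 there. MYL9, a regulatory chain and SRF target, was scarce, with 16 reads in A549 spheroids, 45 in A549 adherent cells, 17 in H1993 spheroids and 2 in the library labelled H1993 adherent. A549 adherent cells were the highest library for MYL9. Its log2 fold was -1.44 (-2.48 to -0.70) in A549 and 2.38 (1.2 to 6.43) in H1993, and -1.26 for H1993 spheroids over A549 adherent cells.

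The 4 tropomyosin genes, TPM1, TPM2, TPM3 and TPM4, encode coiled coils that line the filament and set which proteins can bind it. Their symbols are gene names, and their levels are again in TPM units. TPM1 (chr15:63042632-63071915, plus strand) was at 38.9 TPM in A549 spheroids and 119 TPM in A549 adherent cells, and at 7.97 TPM in H1993 spheroids and 96.9 TPM in the library labelled H1993 adherent. Its log2 fold was -1.49 (-1.56 to -1.43) in A549 and -3.67 (-3.82 to -3.54) in H1993, so both spheroid libraries were below both adherent ones. TPM4 was at 162 TPM in A549 spheroids and 471 TPM in A549 adherent cells, and at 186 TPM in H1993 spheroids and 378 TPM in the library labelled H1993 adherent. The TPM4 folds were -1.43 (-1.48 to -1.39) and -1.10 (-1.14 to -1.05). TPM2 was at 148 TPM in A549 spheroids and 234 TPM in A549 adherent cells, and at 46.5 TPM in H1993 spheroids and 248 TPM in the library labelled H1993 adherent, with folds of -0.55 (-0.62 to -0.48) and -2.49 (-2.60 to -2.38). TPM3 differed from the rest, at 113 TPM in A549 spheroids and 168 TPM in A549 adherent cells, and at 216 TPM in H1993 spheroids and 164 TPM in the library labelled H1993 adherent. It was not called in either pair, and 93.8% of its exonic reads were unique, the lowest share of the set. The 4 genes summed to 462 TPM in A549 spheroids and 992 TPM in A549 adherent cells, and to 457 TPM in H1993 spheroids and 888 TPM in the library labelled H1993 adherent.

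The make-up of the tropomyosin pool also differed, mainly in H1993 spheroids. TPM3 made up 47.4% of it in H1993 spheroids, against 18.5% in the library labelled H1993 adherent. It was 24.5% in A549 spheroids, against 16.9% in A549 adherent cells. TPM1 took 1.75% in H1993 spheroids, against 10.9% in the library labelled H1993 adherent. It was 8.43% in A549 spheroids, against 11.9% in A549 adherent cells. The share of TPM2 was 10.2% in H1993 spheroids and 28.0% in the library labelled H1993 adherent. It was 32.1% in A549 spheroids and 23.6% in A549 adherent cells. Each share depends on the exon length that TPM uses, from 4047 bases for TPM2 to 12492 bases for TPM1. TPM4 held between 35% and 47.5% in the 4 libraries. The spheroid libraries of A549 and H1993 therefore had nearly equal tropomyosin sums, with TPM4 a large part of both and different shares of TPM1, TPM2 and TPM3.

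**Figure D2:**
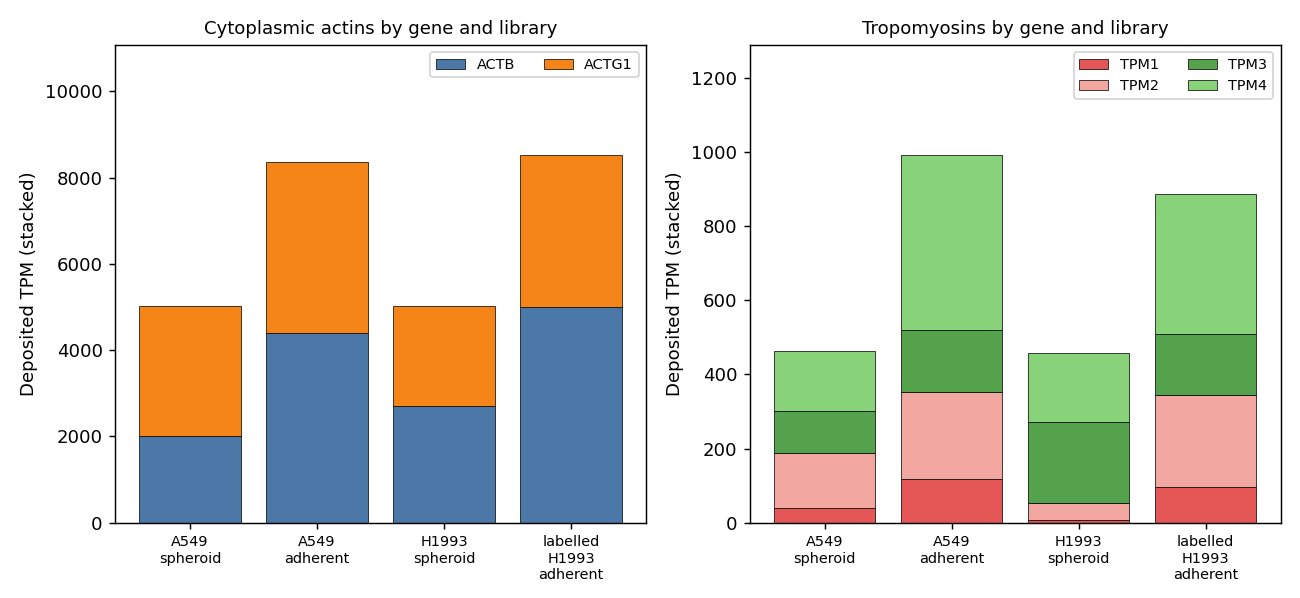
Stacked TPM levels of the cytoplasmic actins ACTB and ACTG1, and of the 4 tropomyosin genes, in each of the 4 libraries. There is 1 library per group and no error bars. TPM3 holds 47.4% of the tropomyosin sum in H1993 spheroids and at most 24.5% in the other libraries.

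Of the 4 filament crosslinker genes, FLNC was called lower in A549, and in H1993 ACTN1 was called lower and FLNC higher. FLNA, the main filamin, was at 328 TPM in A549 spheroids and 648 TPM in A549 adherent cells, and at 333 TPM in H1993 spheroids and 600.2 TPM in the library labelled H1993 adherent. Its log2 folds, -0.87 (-0.90 to -0.84) and -0.92 (-0.95 to -0.89), were alike and short of the limit. FLNC, the muscle filamin, had 32 reads in A549 spheroids and 93 in A549 adherent cells, and 34 in H1993 spheroids and 3 in the library labelled H1993 adherent. Like MYL9, it was scarcest in the library labelled H1993 adherent, with folds of -1.54 (-2.23 to -1.01) in A549 and 2.99 (2.02 to 6.03) in H1993, and -1.35 for H1993 spheroids over A549 adherent cells. ACTN1, the alpha-actinin of stress fibres and adhesions, was at 84.8 TPM in A549 spheroids and 128 TPM in A549 adherent cells, and at 46.1 TPM in H1993 spheroids and 120.0 TPM in the library labelled H1993 adherent. H1993 spheroids were the lowest library, with a fold of -1.45 (-1.52 to -1.38), against -0.49 (-0.54 to -0.43) in A549. ACTN4, the other non-muscle alpha-actinin, was at 372 TPM in A549 spheroids and 758 TPM in A549 adherent cells, and at 377 TPM in H1993 spheroids and 314 TPM in the library labelled H1993 adherent. ACTN4 overlaps CAPN12 on the other strand. A549 adherent cells were the library that stood out for ACTN4, and its A549 fold was -0.92 (-0.95 to -0.88), against 0.19 (0.15 to 0.23) in H1993.

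At adhesions, TLN1, talin, which links integrins to actin, was at 63.8 TPM in A549 spheroids and 110.0 TPM in A549 adherent cells. It was at 33.4 TPM in H1993 spheroids and 82.9 TPM in the library labelled H1993 adherent, with log2 folds of -0.68 (-0.74 to -0.61) and -1.38 (-1.47 to -1.30). VCL, vinculin, which binds stretched talin, was at 56.5 TPM in A549 spheroids and 112 TPM in A549 adherent cells, and at 79.2 TPM in H1993 spheroids and 133 TPM in the library labelled H1993 adherent. The VCL folds of -0.88 and -0.82 were close to each other and below the limit. ZYX, zyxin, a LIM protein of strained filaments, ranged from 71.0 to 117 TPM and was lower in both spheroid libraries, with folds of -0.45 and -0.56. TLN1, VCL and ZYX each overlap a gene on the other strand that had reads.

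The remaining LIM proteins differed in direction. TGFB1I1, also called Hic-5, an adhesion adaptor, was at 8.70 TPM in A549 spheroids and 14.4 TPM in A549 adherent cells, and at 1.82 TPM in H1993 spheroids and 11.9 TPM in the library labelled H1993 adherent. It had 42 reads in H1993 spheroids and a log2 fold of -2.72 (-3.28 to -2.31) there, against -0.61 (-0.85 to -0.37) in A549. FHL2 went the other way, at 21.6 TPM in A549 spheroids and 23.7 TPM in A549 adherent cells, and at 113 TPM in H1993 spheroids and 31.3 TPM in the library labelled H1993 adherent. FHL2 was called higher in H1993, at 1.77 (1.67 to 1.87), and its A549 fold of -0.03 had an interval of -0.18 to 0.12. LIMA1, which bundles filaments, was at 90.8 TPM in H1993 spheroids and 45.4 TPM in the library labelled H1993 adherent, and at 18.6 TPM in A549 spheroids and 28.8 TPM in A549 adherent cells. CSRP1, an alpha-actinin partner, was at 154 TPM in H1993 spheroids and 77.4 TPM in the library labelled H1993 adherent, and at 73.4 TPM in A549 spheroids and 119 TPM in A549 adherent cells. Both were thus highest in H1993 spheroids, with H1993 folds of 0.93 and 0.92, short of the limit. PDLIM5 and PDLIM7, PDZ and LIM proteins that bind the Z-disc or stress fibres, were the only kept genes above 0 in both pairs. PDLIM5 had folds of 0.81 and 0.41, and PDLIM7 of 0.24 and 0.49, none of them called. DSTN, destrin, which severs filaments and frees monomers, was at 468 TPM in A549 spheroids and 622 TPM in A549 adherent cells, and at 245 TPM in H1993 spheroids and 615 TPM in the library labelled H1993 adherent, with folds of -0.30 (-0.34 to -0.26) and -1.40 (-1.45 to -1.35).

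**Figure D3:**
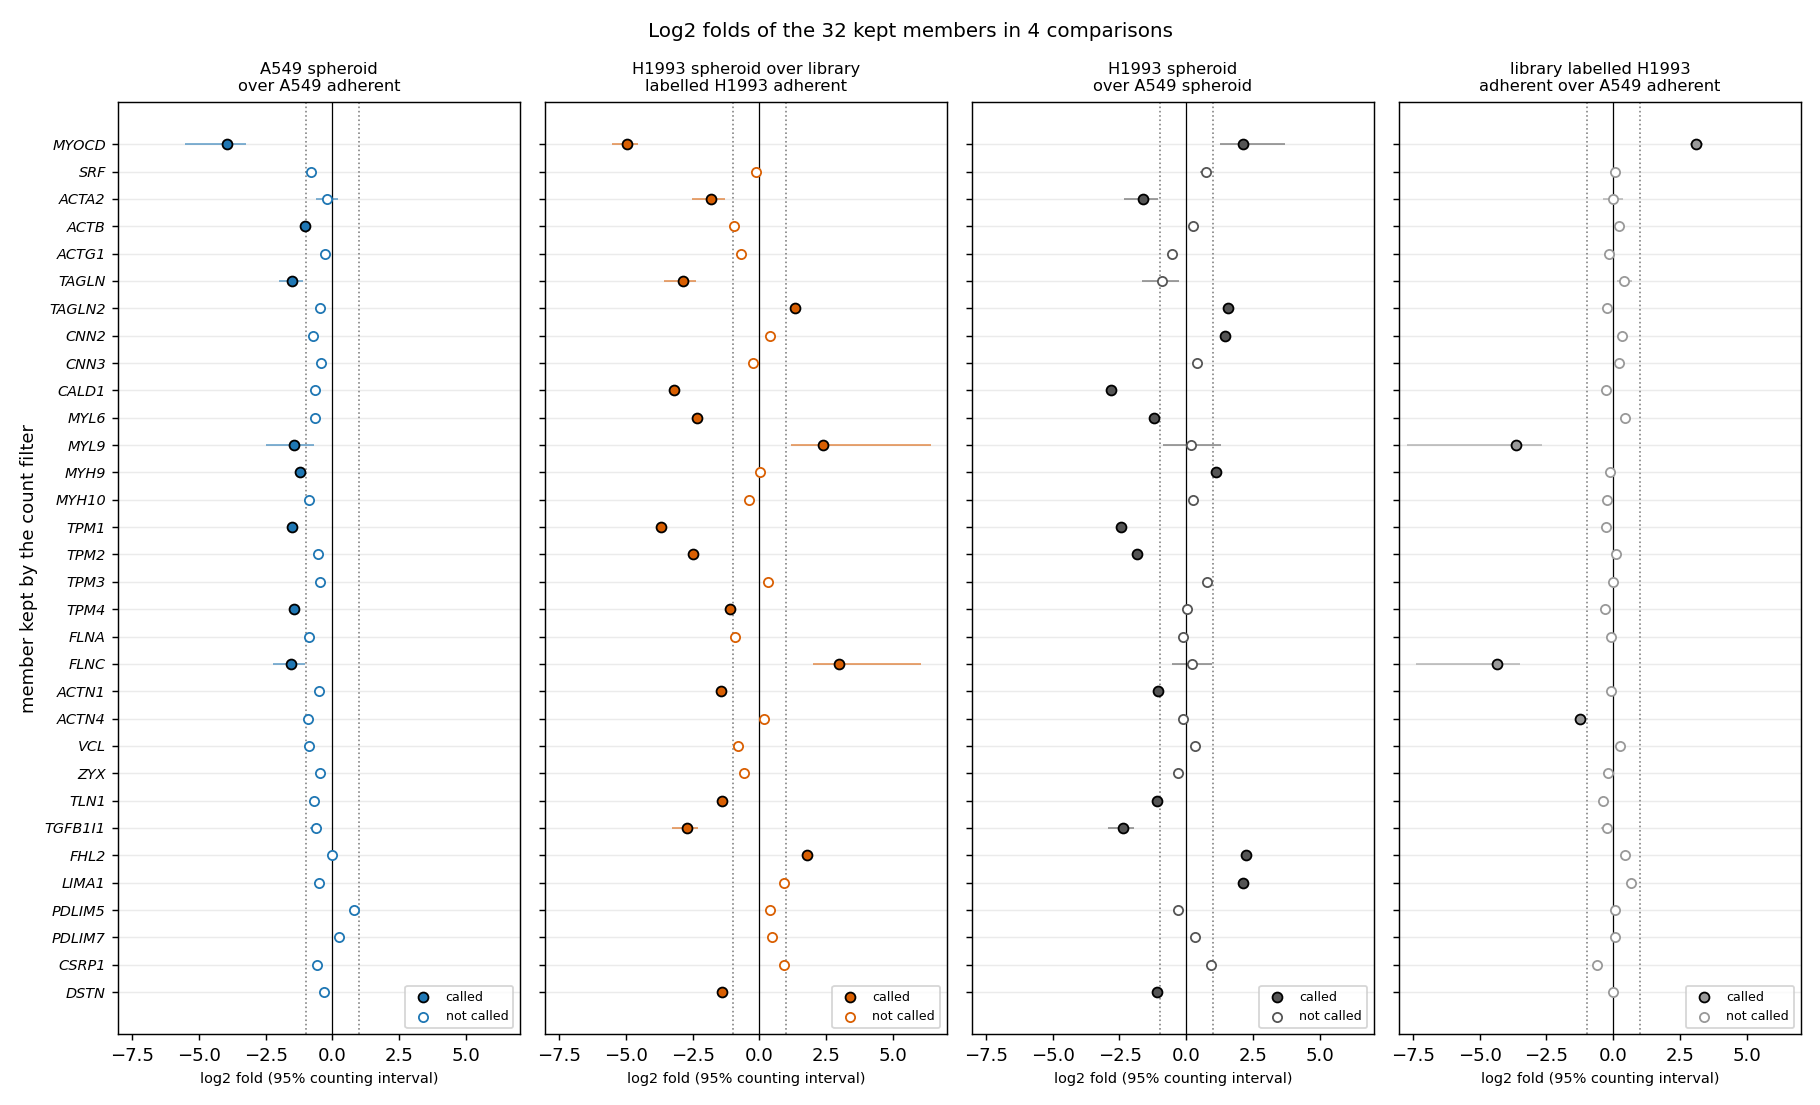
Log2 folds of the 32 kept genes in the 4 pairs of libraries, with bars for the 95% Clopper-Pearson counting interval and dashed lines at the 2-fold limit. In A549 only PDLIM5 and PDLIM7 lie above 0, while in H1993 the folds run from -4.95 for MYOCD to 2.99 for FLNC.

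The genes whose CArG boxes are printed above were also read as a group. Of the 8 such genes that were kept, 1 was called lower and 0 higher in A549, where 10.3% of all kept genes were lower and 12.4% higher, with a median log2 fold of -0.66. Among 20 kept genes with a window and no box, 3 were called lower and 0 higher, with a median of -0.57. In H1993, 3 genes with a box were lower and 1 higher (median -0.80), against 7 lower and 2 higher (median -0.32) for those without, where 18.0% of all kept genes were lower and 17.0% higher. The box genes that were lower in H1993 were ACTN1, TGFB1I1 and TPM4, and the higher one was FHL2. These are descriptions without a test, and the absence of a box says only that the letters are not in that window. MYOCD, ACTB, TAGLN and MYL9, for which no window was used, are in neither group. In A549 all 4 were called lower. In H1993 MYOCD and TAGLN were called lower, MYL9 was called higher and ACTB was not called. The 2 groups therefore do not cover the whole set.

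Between lines, more of these genes were called in the spheroid libraries than in the adherent ones. In H1993 spheroids over A549 spheroids, 6 of 32 genes were called higher and 9 lower, where 18.0% of all kept genes were called higher and 19.1% lower. The higher genes were MYOCD, TAGLN2, CNN2, MYH9, FHL2 and LIMA1, led by FHL2 at a log2 fold of 2.22 (2.10 to 2.34) and LIMA1 at 2.12 (1.99 to 2.25). The lower genes were ACTA2, CALD1, MYL6, TPM1, TPM2, ACTN1, TLN1, TGFB1I1 and DSTN, led by CALD1 at -2.83 (-2.99 to -2.68) and TPM1 at -2.45 (-2.60 to -2.30). In the library labelled H1993 adherent over A549 adherent cells, MYOCD alone was called higher, at 3.10 (2.87 to 3.37), where 6.95% of all kept genes were. MYL9, FLNC and ACTN4 were called lower, where 5.49% of all kept genes were, with ACTN4 at -1.25 (-1.29 to -1.22). The larger count between the spheroid libraries stands beside larger shares over all genes, and whether the 2 counts differ was not tested. All 35 genes together took 1.10% of exonic reads in A549 spheroids and 1.87% in A549 adherent cells, and 1.17% in H1993 spheroids and 1.84% in the library labelled H1993 adherent.

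Intronic reads come in part from RNA that is not yet spliced, and they are a readout that the exonic values above did not use. For the genes with at least 30 intronic reads in 1 library of the pair, the intronic log2 fold had the same sign as the exonic one in 27 of 27 genes in A549, against 74.7% of all genes with as many reads. In H1993 the sign was shared by 26 of 27 genes, against 82.2% of all such genes, and CNN2 was the exception. By intronic reads 14 of 27 genes were called lower and 0 higher in A549, where 17.6% of all such genes were lower and 5.93% higher. In H1993, 12 were called lower and 5 higher, where 17.5% were lower and 16.8% higher. The median intronic fold of the set was -1.07 in A549, against -0.36 over all such genes, and -0.68 in H1993, against -0.02. Intronic reads were 8.43% of gene reads in A549 spheroids and 10.1% in A549 adherent cells, and 11.6% in H1993 spheroids and 10.7% in the library labelled H1993 adherent.

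For single genes the size of the fold often differed between the 2 readouts. The exonic fold lay outside the 95% interval of the intronic fold in 14 of 27 genes in A549 and in 12 of 27 in H1993. The share over all genes is not given, so these counts are not read as a trait of the set. Intronic folds were scaled by the exonic library sizes, and their median over all such genes was -0.36 in A549. MYOCD had 6 intronic reads in H1993 spheroids, against 275 in the library labelled H1993 adherent, a log2 fold of -4.95 beside -4.95 in exons. TPM1 had 122, against 1658, with -3.56 beside -3.67, and CALD1 had 36, against 458, with -3.42 beside -3.18. FHL2 had 604, against 229, with 1.57 beside 1.77. SRF differed between readouts, with 33 intronic reads in H1993 spheroids and 86 in the library labelled H1993 adherent, a fold of -1.15 (-1.82 to -0.60) beside -0.14 in exons. TPM3 introns were at 1.09 (0.83 to 1.37) beside 0.32 in exons, those of PDLIM5 at 1.19 beside 0.41 and those of TPM2 at -3.34 beside -2.49. In A549, ACTG1 introns were at -1.15 (-1.69 to -0.70) beside -0.29, and those of DSTN at -1.12 (-1.49 to -0.79) beside -0.30.

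**Figure D4:**
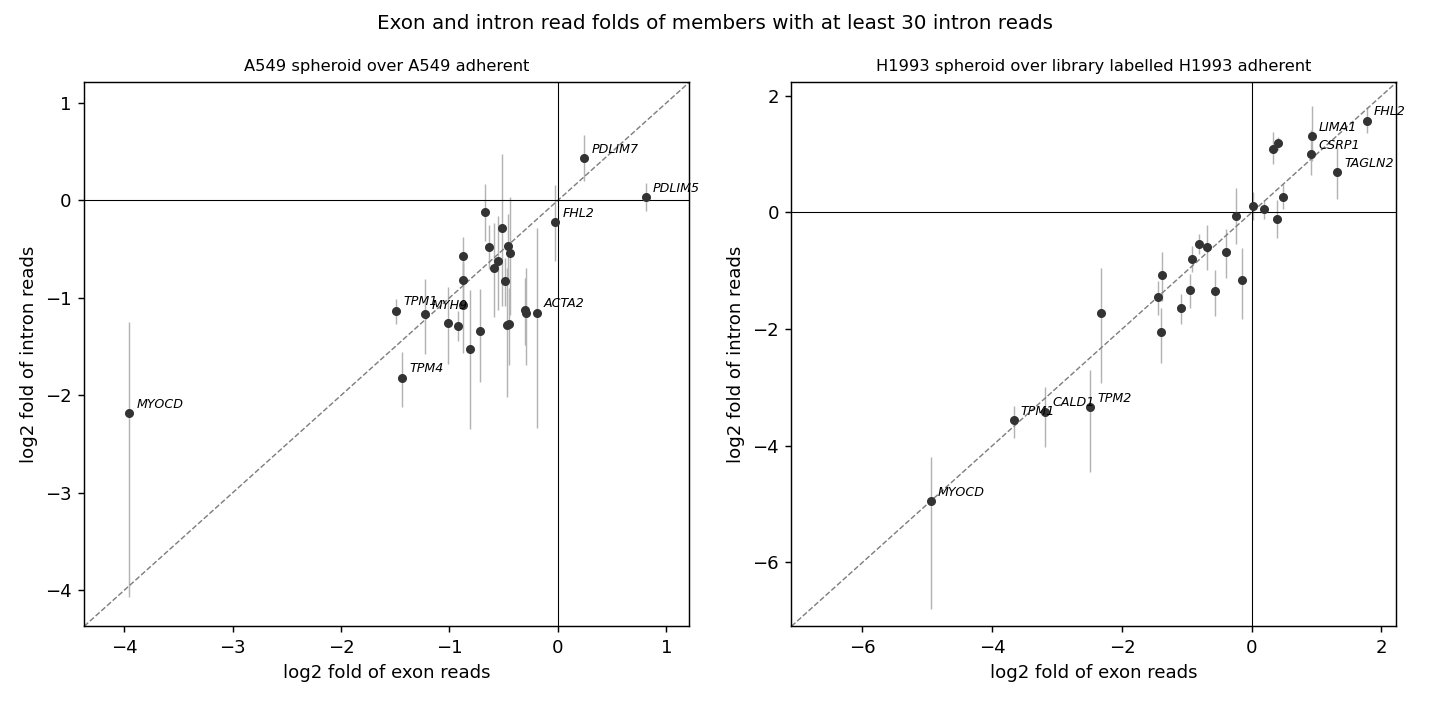
Exonic against intronic log2 folds of the genes with at least 30 intronic reads in 1 library of the pair, for the A549 pair and the H1993 pair, with 1 point per gene. All 27 points of the A549 panel and 26 of 27 in the H1993 panel share the sign of both folds.

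The circuit around SRF was read from other lists. Their counts stand against 12.4% of all kept genes called higher and 10.3% lower in A549, and 17.0% higher and 18.0% lower in H1993. The highest and lowest gene of a list is taken among those that reached 100 reads in either library compared. Of 5 MRTF and ternary complex factor genes, 0 were called higher and 1 lower in A549, and 0 higher and 2 lower in H1993. MRTFA, named MKL1 in the tables, was lower in both pairs, with 374 reads in A549 spheroids and 880 in A549 adherent cells, and 304 in H1993 spheroids and 990 in the library labelled H1993 adherent. Its log2 folds were -1.29 (-1.48 to -1.12) and -1.51 (-1.71 to -1.33), whereas MRTFB was at 0.20 and 0.01. ELK3, a ternary complex factor, was the lowest in H1993 at -2.16. Of 11 immediate early SRF targets, among them SRF itself, 2 were higher and 1 lower in A549, and 1 higher and 5 lower in H1993. EGR1 was the lowest in H1993 at -2.74 and DUSP5 the highest at 4.27, while in A549 FOSL1 was the lowest at -1.52 and MCL1 the highest at 1.16 among genes with at least 100 reads. These early genes therefore did not share a direction between or within the pairs.

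Genes that set the supply of actin monomers were called in both directions in both pairs, in A549 at shares near those of all kept genes. Of 17 monomer-binding and turnover genes, 3 were higher and 2 lower in A549, and 2 higher and 5 lower in H1993. TMSB4X, thymosin beta-4, which holds free monomers, was the lowest of these in H1993 at -2.47, and SCIN, a severing protein, was the highest at 5.67. In A549 the lowest was WDR1, a cofilin partner, at -1.15, and the highest GSN, gelsolin, at 1.35, among genes with at least 100 reads, while SCIN, with 54 reads in A549 spheroids and 7 in A549 adherent cells, was at 2.58.

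Filament branching, other myosin II and other adhesion genes were read last. Of 9 Arp2/3 complex genes, 0 were called in A549, and 3 were higher and 2 lower in H1993, with ARPC1A at 1.49 and ARPC5 at -1.54. Of the 4 kept among 5 other myosin II genes, 0 were called in A549, and in H1993 MYH14, another non-muscle heavy chain, was higher at 4.95 and MYL6B lower at -1.42. Of 23 other adhesion and stress fibre genes, 0 were higher and 5 lower in A549, and 2 higher and 8 lower in H1993. NEXN, nexilin, was the lowest in A549 at -3.10, SYNPO2 the lowest in H1993 at -3.14 and PTK2, focal adhesion kinase, the highest in H1993 at 1.11.

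Markers of other cell types were read beside these genes. In H1993 spheroids 5 of 6 epithelial markers were called higher and 0 lower against the library labelled H1993 adherent, with summed levels of 10201 TPM and 3109 TPM. In A549 spheroids 1 was higher and 2 lower, with summed levels of 4100 TPM, against 8315 TPM in A549 adherent cells. The 9 smooth muscle markers, of which MYOCD, CNN1, LMOD1 and ACTG2 are also in the set above, summed to 10.4 TPM in A549 spheroids and 31.1 TPM in A549 adherent cells, and to 42.6 TPM in H1993 spheroids and 53.9 TPM in the library labelled H1993 adherent. The H1993 sums hold folds in opposite directions. MYLK had 3298 reads in H1993 spheroids and 827 in the library labelled H1993 adherent, a log2 fold of 2.18 (2.07 to 2.29). MYOCD was at -4.95 in the same pair. Between 4 and 5 of the 9 reached 10 reads, and MYH11, the defining myosin, was at 0 in all libraries but A549 spheroids. The 9 fibroblast markers summed to 28.0 TPM in A549 spheroids and 9.52 TPM in A549 adherent cells, and to 19.6 TPM in H1993 spheroids and 36.5 TPM in the library labelled H1993 adherent, with 4 to 6 at 10 reads or more. Of the 9 skeletal and cardiac muscle, 6 endothelial and 6 blood markers, at most 2 of each list reached 10 reads. Single markers among them were called higher in spheroids. CD68 had 1492 reads in A549 spheroids and 259 in A549 adherent cells, and PECAM1 had 129 and 2. TNNI3 had 280 reads in H1993 spheroids and 13 in the library labelled H1993 adherent. In the A549 pair 1 endothelial marker was called lower. The part of these markers in the values above was not tested.

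A fit over all 4 libraries, with culture and line as terms and the labels taken as given, called no gene. With edgeR's quasi-likelihood test and Benjamini-Hochberg adjustment, 0 of 15273 genes (0.00%) passed an adjusted p of 0.05, and 1258 genes (8.24%) had an unadjusted p under 0.05. Of the 32 genes of the set 0 passed, and 5 had an unadjusted p under 0.05. These were MYOCD (log2 fold -4.67, adjusted p = 0.264 by edgeR), TPM1 (-2.58, adjusted p = 0.433), TAGLN (-2.23, adjusted p = 0.540), CALD1 (-1.91, adjusted p = 0.586) and TPM4 (-1.27, adjusted p = 0.586), each lower in both spheroid libraries. With DESeq2 and the same terms 591 genes were called, among them MYOCD (adjusted p = 1.264e-08) and TPM1 (adjusted p = 0.0053). The fit has 1 residual degree of freedom and treats the lines as replicates of culture.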

How the data were processed

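Per the labels' protocols, a stranded mRNA kit was used on total RNA, with 1 library a sample. The genome build was hg38, per the submitters' processing notes, whereas no source used here gives the aligner, counter or annotation. Per the file headers, the authors deposited whole-number counts of total and unique reads per gene, exon and intron, and exon and intron counts summed to gene counts. The deposited TPM values (per exon length) summed to 1e+06 in each library and gave the levels. The deposited RPKM equalled the column named expression value and entered no comparison.

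Genes were taken from the tables by symbol. Counts of total exon reads were filtered with edgeR 4.0.16 (filterByExpr, culture and line in the design) and scaled by TMM in R 4.3.3. A prior count of 2 entered each log2 fold, and intervals were exact Clopper-Pearson 95% intervals of 2 counts. PCR copies cannot be told from separate molecules, so intervals and floors cover counting error only. A call needed a fold of at least 2. Culture over both lines was tested with edgeR's glmQLFTest, with DESeq2 1.42.0 as the alternative. The fit was also run on simulated data. Their spread between libraries (dispersion) was set below the common dispersion of 0.233 of the real fit. That run therefore does not show how the fit performs on these data. The genes, lists and tests were chosen with earlier results of these data known. All 35 genes are named. Of the other lists, the highest and lowest folds in the culture pairs were taken among genes with at least 100 reads. Not all of these are named, and the marker lists are given mainly by counts and summed levels. The results of 1 list are not reported here. Promoter sequences are RefSeq's (GRCh38.p14). Symbols differing from the tables were matched by their older names. Alternatives were other scalings, filters, prior counts, fold limits, unique reads, TPM folds, no block for line and each library left out, the last with culture as the only term. The A549 adherent library in place of the library labelled H1993 adherent was added after seeing the data.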

Additional observations from a re-analysis of the deposited data

Results flagged for a closer look

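Of the 10 kept genes with folds of opposite sign in the 2 lines, MYL9 and FLNC were called in both lines, in opposite directions. MYL9, a regulatory light chain, had a log2 fold of -1.44 for A549 spheroids over A549 adherent cells and of 2.38 for H1993 spheroids over the library labelled H1993 adherent. FLNC, the muscle filamin, had -1.54 in the A549 pair and 2.99 in the H1993 pair. With 1 library a group, the difference between the lines was not tested. The H1993 values rest on 2 reads of MYL9 and 3 reads of FLNC in the library labelled H1993 adherent. Set against A549 adherent cells instead, H1993 spheroids were at -1.26 for MYL9 and -1.35 for FLNC, the direction of the A549 pair.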

How the results depend on the processing

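The limits are 1 library a group, and 1 library whose values over all genes lay nearer to A549 adherent cells while CDKN2A, CDKN2B and HNF4A went with its H1993 label. The replicate block here is the line. Without the replicate block edgeR called 0 genes and 0 of the set, as with it. Equal counts of 0 cannot show whether the block matters. The common dispersion was 0.292 without the block and 0.233 with it. By edgeR, 4 genes of the set had an unadjusted p under 0.05 without the block and 5 with it. Over both lines edgeR called 0 genes, against 173 with no filter on low counts (127 higher, 46 lower, among them MYOCD as 1 gene of the set) and 591 with DESeq2 (335 higher, 256 lower, 2 of the set). Leaving out each library in turn gave from 0 to 158 genes, the 158 (42 higher, 116 lower) without H1993 spheroids, and 0 genes of the set each time, where the lone library of a culture is assumed to vary like the others. Unadjusted p values under 0.05 ran from 1209 to 2031 genes over the fits that used all 4 libraries.

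With a fold limit of 1.5, 20 genes of the set were called in A549 (1 higher, 19 lower), and over all genes 5992 were called in A549, 8085 in H1993 and 3533 in the library labelled H1993 adherent over A549 adherent cells. The median of the set in A549 was -0.77 with library size alone and -0.76 from TPM. Library size alone also moved the median of all genes in A549 to -0.11. With that scaling 9 genes of the set were called lower and 0 higher, where 12.0% of all kept genes were lower and 10.6% higher. In H1993 the median of the set was -0.71 with no filter and -0.93 with A549 adherent cells as the comparison, where MYL9 turned to -1.26 and FLNC to -1.35. For H1993 spheroids over A549 spheroids the median was 0.0065 with no filter and 0.286 from TPM. The cause of these shifts was not tested. DESeq2 size factors, unique reads and a prior count of 0.5 moved none of the 128 single folds by more than its counting interval, while library size alone moved 57 and TPM 62.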
